A study of Mus musculus with 48 samples.

Results

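Transcripts of 6 heat shock chaperone genes, listed by name as Hspa1a, Hspa1b, Dnajb1, Hsph1, Hspa8 and Hsp90aa1, were followed across 4 sorted cell populations and 2 genotypes. Of these 6, 4 were counted among the 24538 gene rows of the series, and Hspa1a and Hspa1b are not analysed here. The series measured poly(A) RNA by bulk 3′ sequencing in immune cells sorted from mouse colon tumours. All groups share the same treatment, azoxymethane (AOM, a carcinogen) with dextran sulfate sodium (DSS, which injures the colon lining), and the same time label, day 85. The contrast was between mice labelled ctrl and mice labelled ko for Ccl17, a chemokine gene. Cells were sorted on Ly6C, found on monocytes, and on MHC class II, the molecules that show peptides to helper T cells.

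There were 8 replicates of each genotype for Ly6Clo MHCIIhi and 4 of each for Ly6Chi MHCIIhi, Ly6Chi MHCIIlo and Ly6Clo MHCIIlo. In Ly6Clo MHCIIhi, 4 replicates of each genotype had a second library, which was added to the first. No label ties a replicate to its own animal, and a p-value therefore reflects only how these samples vary, which may be technical. Knockout mice were housed with controls or apart, per the series' design, but housing is not given per sample. The kind of Ccl17 deletion was not stated in the labels. All cells of a population were sorted from tumours and sequenced in bulk, so fewer cells of a type and less RNA per cell cannot be told apart in any value below.

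The 48 libraries held 8409 to 500683 counts with a median of 280060.5, and the shallowest, replicate 2 of Ly6Chi MHCIIhi ctrl, was not used, so that 39 replicates remained. Ly6Chi MHCIIhi ctrl therefore had 3 replicates, and replicates 1 and 3 of it held 78264 and 34362 counts. Replicate 1 of that group stood apart: its summed red cell markers (4 haemoglobin genes) reached 237822 CPM (counts scaled to the library total) and its summed neutrophil markers (7 genes) 45453 CPM, against medians of 1097 and 685 CPM in its population. Results for the members that rest on it are given with and without it. Ccl17 averaged 170 ± 269 CPM (SD, n = 8) in ctrl and 3.22 ± 2.67 CPM (SD, n = 8) in ko of Ly6Clo MHCIIhi, and its group means were between 0.934 and 12.2 CPM in the other 3 populations. The gate gene Ly6c2 averaged 497 and 1226 CPM in the Ly6Chi populations and 26.3 and 41.4 CPM in the Ly6Clo populations. Cd74, the MHC class II chaperone, averaged 9660 and 13864 CPM in the MHCIIhi populations and 1858 and 2471 CPM in the MHCIIlo populations. Macrophage markers (8 genes) summed to 14678 CPM in Ly6Clo MHCIIhi, 10894 in Ly6Clo MHCIIlo, 4698 in Ly6Chi MHCIIhi and 2757 in Ly6Chi MHCIIlo.

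Molecular chaperones bind proteins that have not reached, or have lost, their folded shape. Hsp70-type chaperones hold exposed stretches of a client in a cycle driven by ATP, J proteins start the cycle, exchange factors end it by releasing ADP, and Hsp90 receives many clients for late folding. Under heat or other protein stress the transcription factor HSF1 forms trimers that bind heat shock elements, which are arrays of inverted GAA repeats in the promoters of these genes. Macrophages and monocytes, like other cells, transcribe some family members all the time and others mainly under stress.

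Each counted gene has a distinct role in this cycle. Dnajb1 (chromosome 8, 83608193 to 83612653, plus strand, GRCm38, GENCODE M21) encodes a stress-inducible J protein that delivers clients to Hsp70. Hsph1 (chromosome 5, 149614287 to 149636376, minus strand) encodes a Hsp110-type exchange factor. Hspa8 (chromosome 9, 40800984 to 40810087, plus strand) encodes Hsc70, the Hsp70 made in most cells without stress. Hsp90aa1 (chromosome 12, 110690605 to 110702728, minus strand) encodes the stress-inducible cytosolic Hsp90. Chaperone genes such as Hspa8 and Hspe1 have close pseudogene copies, and the labels do not say how reads shared with copies were counted.

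Promoter windows from RefSeq (GRCm38.p6, 250 bases before to 50 bases after a transcription start) were matched for Dnajb1 and Hsph1, each with 2 starts. They are shown because the genes varied together between replicates, as described below. The windows were searched for the paired half-sites GAANNTTC and TTCNNGAA, each of which reads the same on both strands, and for 3 half-sites in a row, TTCNNGAANNTTC or its reverse complement GAANNTTCNNGAA. Hsph1 held 3 paired half-sites, of which 2 overlap and together form the run of 3 half-sites. Positions below are counted from 0 at the start. The lines give 30 bases each, 5′ to 3′ on the minus strand, with the match in capitals. The first match begins at -33 from the start at 149636336, in the line of chr5:149636351-149636380. The second match begins at 15 from the start at 149636315, in the line of chr5:149636279-149636308. Both lines overlap an annotated UTR of Hsph1.
Hsph1 paired half-sites: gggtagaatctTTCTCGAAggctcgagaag
Hsph1 run of 3 half-sites: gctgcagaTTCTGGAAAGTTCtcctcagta

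A paired half-site was present in 15.1% of all 32817 windows and a run of 3 in 0.603%. Both Dnajb1 windows held neither, which says only that these letters are not in those windows. A match is a description of letters and not of binding, which was not measured.

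Dnajb1 transcripts were most abundant in Ly6Clo MHCIIhi. The level there was 867 ± 450 CPM (SD, n = 16), with a lowest replicate of 396, a median of 731 and a highest of 1680 CPM. In Ly6Chi MHCIIhi the lowest, median and highest of 7 replicates were 191, 262 and 1034 CPM, and the mean was 403 ± 294 CPM. Ly6Clo MHCIIlo spanned 147 to 512 CPM with a median of 266 and a mean of 294 ± 122 CPM (SD, n = 8). Ly6Chi MHCIIlo spanned 143 to 715 CPM with a median of 237 and a mean of 287 ± 184 CPM (SD, n = 8). All 4 ranges overlapped, but 16 of 16 replicates of Ly6Clo MHCIIhi lay above the mean of Ly6Chi MHCIIlo, and 6 of 8 replicates of Ly6Clo MHCIIlo lay below the lowest of Ly6Clo MHCIIhi. No pair among the 3 lower populations passed the test described next.

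Populations were compared with genotype in the model, using the quasi-likelihood F test of edgeR with Benjamini-Hochberg adjustment over all genes tested; unless another tool is named, each adjusted p below is from it. Differences are on the log2 scale and carry a standard error (SE). Dnajb1 was higher in Ly6Clo MHCIIhi than in Ly6Chi MHCIIlo by 1.59 (SE 0.30, adjusted p = 8.16e-05) and higher than in Ly6Clo MHCIIlo by 1.44 (SE 0.29, adjusted p = 0.000405). Both calls were kept in 24 of 24 fits that left out 1 replicate. Against Ly6Chi MHCIIhi the difference was 0.97 (SE 0.34, adjusted p = 0.0485), and this call was kept in only 6 of 23 such fits. It was lost without any 1 of Ly6Chi MHCIIhi ctrl 3 or 4, Ly6Chi MHCIIhi ko 1, 2, 3 or 4, Ly6Clo MHCIIhi ctrl 2, 3, 4, 5, 6 or 8, or Ly6Clo MHCIIhi ko 2, 4, 6, 7 or 8, with folds of 0.80 to 1.01 and adjusted p of 0.0505 to 0.121. Without the replicate rich in red cell markers, Ly6Chi MHCIIhi ctrl 1, it was 1.46 (adjusted p = 0.00177). DESeq2 did not call it.

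Hsph1 followed a similar order, with its highest levels in Ly6Clo MHCIIhi. That population had 334 ± 166 CPM (SD, n = 16), with a lowest, median and highest of 154, 278 and 628 CPM. Ly6Clo MHCIIlo had 177 ± 95.9 CPM (SD, n = 8), from 98.3 to 395 with a median of 140 CPM. Ly6Chi MHCIIhi had 168 ± 108 CPM (SD, n = 7), from 84.9 to 398 with a median of 152 CPM, and Ly6Chi MHCIIlo had 144 ± 140 CPM (SD, n = 8), from 47.5 to 469 with a median of 89.2 CPM. The ranges overlapped, and in each of the lower populations a single ctrl replicate set the top of the range. Hsph1 rose in Ly6Clo MHCIIhi over Ly6Chi MHCIIlo by 1.25 (SE 0.35, adjusted p = 0.00449), a call kept in 24 of 24 fits that left out 1 replicate.

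Over Ly6Clo MHCIIlo, Hsph1 rose by 0.82 (SE 0.29, adjusted p = 0.0370), and the call was kept in 14 of 24 such fits. It was lost without any 1 of Ly6Clo MHCIIlo ctrl 1, 3 or 4, Ly6Clo MHCIIlo ko 1, 3 or 4, Ly6Clo MHCIIhi ctrl 6, or Ly6Clo MHCIIhi ko 2, 4 or 8, with folds of 0.72 to 0.80 and adjusted p of 0.0505 to 0.0721. Against Ly6Chi MHCIIhi the Hsph1 difference of 0.94 (SE 0.34) had an adjusted p of 0.0551, just past the threshold of 0.05. Without Ly6Chi MHCIIhi ctrl 1 it was 1.30 (adjusted p = 0.00547), and it also passed without any 1 of Ly6Clo MHCIIhi ctrl 1 or 7 or ko 3 or 5 (folds of 0.97 to 1.01, adjusted p of 0.0326 to 0.0471).

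Hspa8, the constitutive family member, showed no population difference past the threshold. Its means were 1679 ± 570 CPM (SD, n = 16) in Ly6Clo MHCIIhi, 1530 ± 535 (n = 8) in Ly6Chi MHCIIlo, 1400 ± 228 (n = 7) in Ly6Chi MHCIIhi and 1247 ± 233 (n = 8) in Ly6Clo MHCIIlo. The largest of its 6 differences was 0.30 (SE 0.15, adjusted p = 0.134), between Ly6Clo MHCIIhi and Ly6Clo MHCIIlo. Ranges ran from 1039 to 3486 CPM in Ly6Clo MHCIIhi and from 942 to 1697 CPM in Ly6Clo MHCIIlo and overlapped throughout, so no neighbours in this order were separated.

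Hsp90aa1 levels were not ordered like those of Dnajb1 and Hsph1. The means were 380 ± 246 CPM (SD, n = 8) in Ly6Clo MHCIIlo, 353 ± 213 (n = 16) in Ly6Clo MHCIIhi, 297 ± 290 (n = 8) in Ly6Chi MHCIIlo and 210 ± 94.9 (n = 7) in Ly6Chi MHCIIhi. The medians were 320, 279, 197 and 177 CPM in the same order of populations. By mean, the place of Ly6Clo MHCIIlo rested on its ctrl 2 at 962 CPM. Without it the mean was 296 ± 77.9 CPM (SD, n = 7), below that of Ly6Clo MHCIIhi with all its replicates. Among those, ctrl 3 held 953 and ctrl 6 held 721 CPM. The difference of Ly6Clo MHCIIhi from Ly6Clo MHCIIlo turned from -0.25 to 0.09 without Ly6Clo MHCIIlo ctrl 2. No pair passed the threshold. The largest difference was 0.84 (SE 0.34, adjusted p = 0.0713), between Ly6Clo MHCIIlo and Ly6Chi MHCIIhi, and it passed without Ly6Chi MHCIIhi ctrl 1 (1.11, adjusted p = 0.00883) or without Ly6Clo MHCIIlo ctrl 1 (0.96, adjusted p = 0.0233). Without Ly6Chi MHCIIlo ctrl 2, the highest Hsp90aa1 replicate of all at 997 CPM, Hsp90aa1 was also higher in Ly6Clo MHCIIlo than in Ly6Chi MHCIIlo (1.07 against 0.57 with it, adjusted p = 0.00628) and in Ly6Clo MHCIIhi than in Ly6Chi MHCIIlo (0.77 against 0.28 with it, adjusted p = 0.0329).

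**Figure D1:**
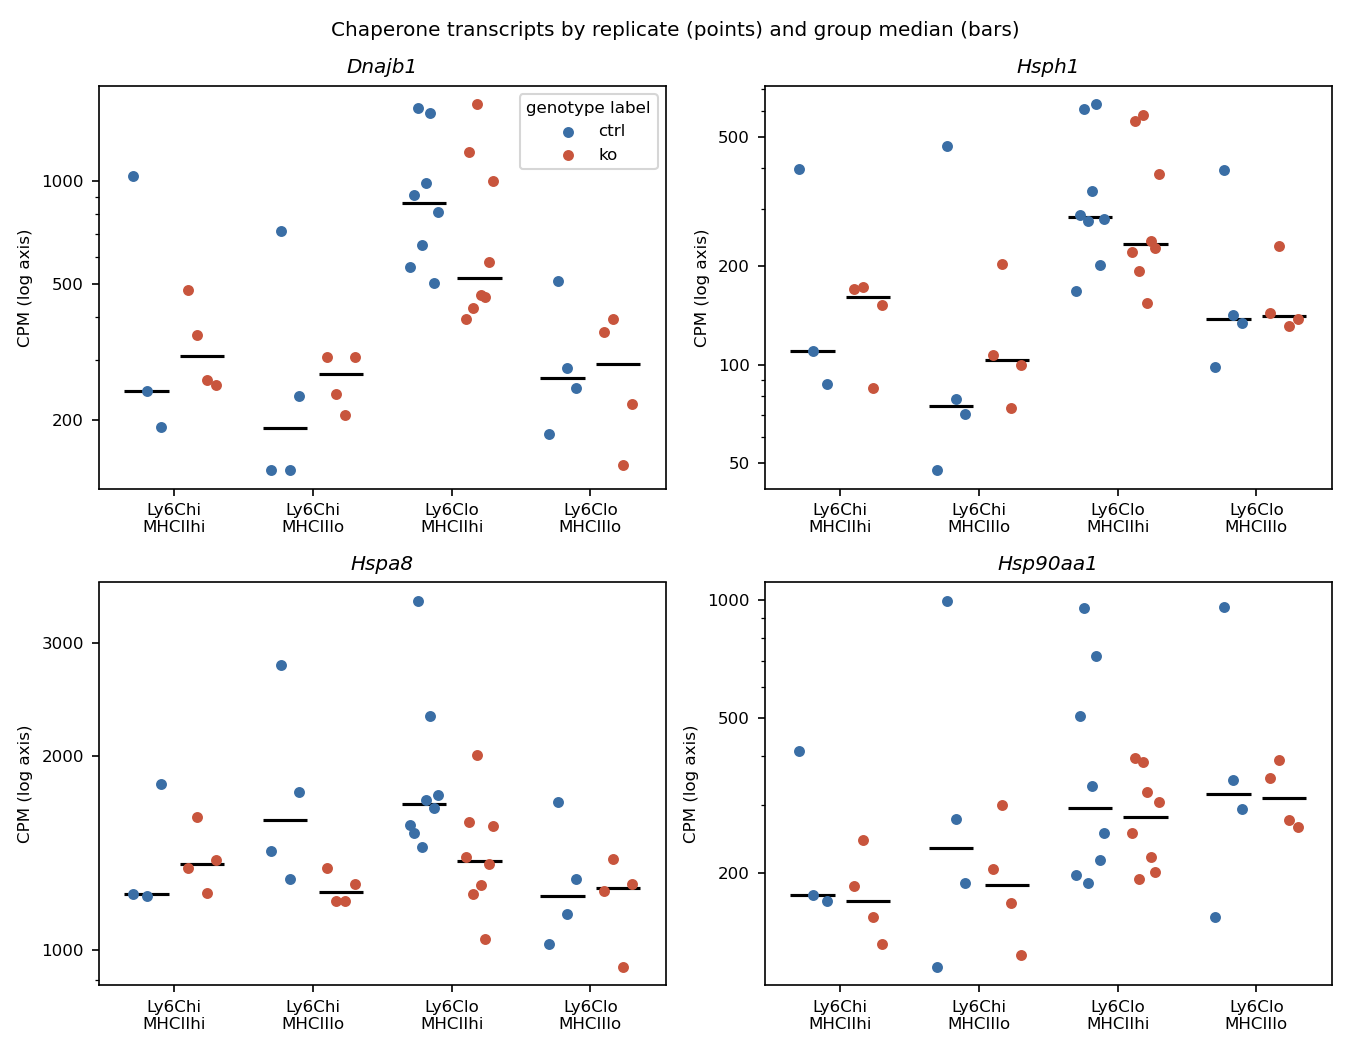
CPM on a log axis for each replicate (points, ctrl in blue and ko in red) of the 4 populations, with the group median as a bar. Dnajb1 and Hsph1 are highest in Ly6Clo MHCIIhi, while single ctrl replicates stand above the rest of their group in the other 3 populations.

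Counted over members, Ly6Clo MHCIIhi against Ly6Chi MHCIIlo gave 2 of 4 higher and none lower, where 43.8% of all genes were called (21.6% higher). Against Ly6Clo MHCIIlo it gave 2 of 4 higher, where 27.6% of genes were called (13.3% higher), and against Ly6Chi MHCIIhi 1 of 4, where 17.4% were called (9.31% higher). The other 3 pairs gave 0 of 4 with all replicates. For Ly6Chi MHCIIhi against Ly6Chi MHCIIlo 3.23% of all genes were called, for Ly6Clo MHCIIlo against Ly6Chi MHCIIlo 39.0%, and for Ly6Clo MHCIIlo against Ly6Chi MHCIIhi 25.4%. At an unadjusted p under 0.05 these 3 pairs held 0, 0 and 1 of the 4 members, and DESeq2 called 0 in each. In Ly6Clo MHCIIlo against Ly6Chi MHCIIlo the 0 rested on Ly6Chi MHCIIlo ctrl 2: without it Hsph1 (1.04 against 0.47 with it, adjusted p = 0.00795) and Hsp90aa1 (1.07, adjusted p = 0.00628) were called, and a fit with the replicate number as a block also called 2 of 4. Without Ly6Chi MHCIIhi ctrl 1, Dnajb1 was 0.12 and Hsph1 0.02 higher in Ly6Chi MHCIIhi than in Ly6Chi MHCIIlo (0.67 and 0.40 with it), and Dnajb1 in Ly6Clo MHCIIlo against Ly6Chi MHCIIhi turned from -0.48 to 0.10. Populations sharing a comparison differ at many genes, and the members' counts are to be read against these shares. The members' median fold was 0.76, 0.56 and 0.77 in the first 3 pairs, against -0.00, -0.00 and 0.02 for all genes tested. Ly6Clo MHCIIhi also had the highest mean macrophage marker sum (14678 CPM). Its mean neutrophil marker sum was 739 CPM, against 12062 in Ly6Clo MHCIIlo and 10653 in Ly6Chi MHCIIlo. Ly6Chi MHCIIhi had a mean neutrophil sum of 7267 CPM but a median of 685 CPM, beside a median of 702 CPM in Ly6Clo MHCIIhi. The part of cell composition in the members' differences was not tested.

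**Figure D2:**
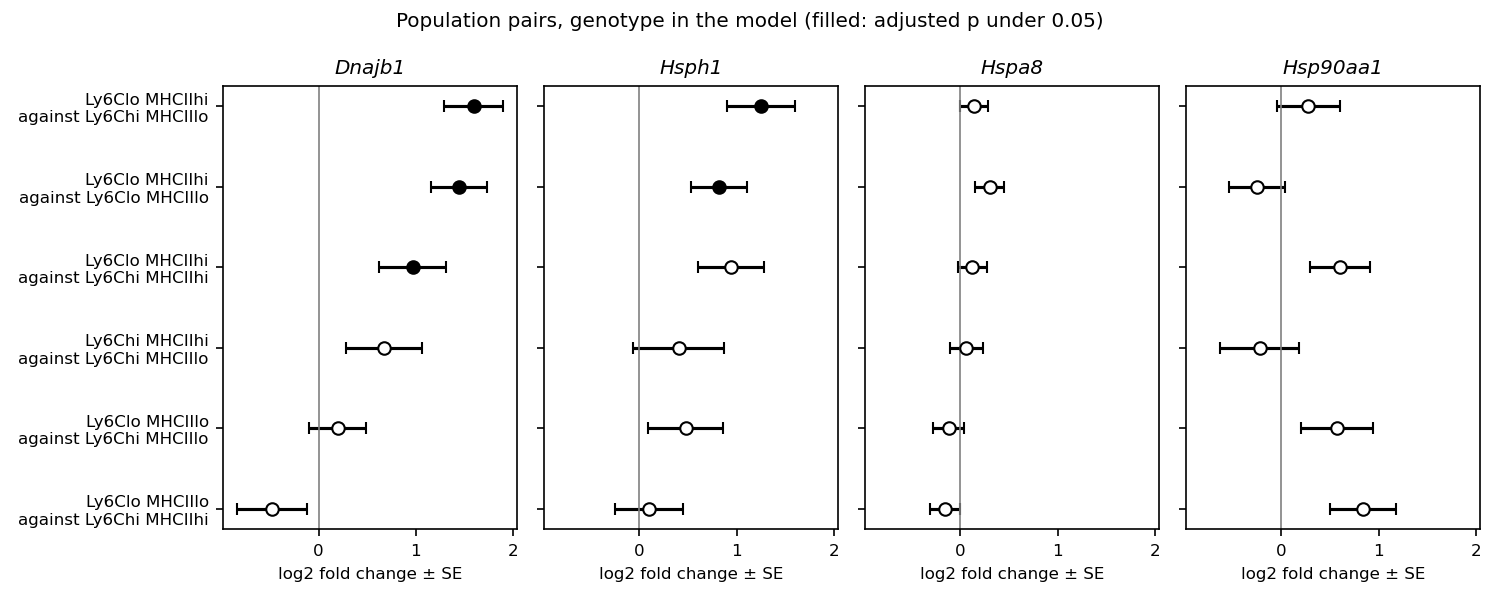
Log2 fold change with SE (horizontal axis) of each gene in the 6 population pairs, filled where the adjusted p was under 0.05. The filled points are all comparisons of Ly6Clo MHCIIhi, 3 for Dnajb1 and 2 for Hsph1, with folds of 0.82 to 1.59.

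Other genes of the chaperone system also differed between the populations, in orders of their own. Of 13 counted genes of the Hsp70 family and its exchange factors, 4 to 6 passed the count filter of each pair. Bag3, an exchange factor that routes clients to autophagy, averaged 221 ± 138 CPM (SD, n = 16) in Ly6Clo MHCIIhi and 82.2 to 89.1 CPM in the other 3 populations. It was higher in Ly6Clo MHCIIhi than in Ly6Clo MHCIIlo by 1.29 (SE 0.40, adjusted p = 0.0166), than in Ly6Chi MHCIIhi by 1.31 (SE 0.40, adjusted p = 0.0224) and than in Ly6Chi MHCIIlo by 1.28 (SE 0.37, adjusted p = 0.00597). Without Ly6Chi MHCIIhi ctrl 1 the second of these was 1.28 (adjusted p = 0.0303). St13, which stabilises Hsp70 in its ADP-bound state, did not share that order: it was lower in Ly6Clo MHCIIhi than in Ly6Clo MHCIIlo by 0.57 on the log2 scale (-0.57, adjusted p = 0.000215) and higher in Ly6Clo MHCIIlo than in Ly6Chi MHCIIlo by 1.23 (adjusted p = 1.05e-05).

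Of 8 J proteins other than Dnajb1 tested between Ly6Clo MHCIIhi and Ly6Clo MHCIIlo, 0 were higher and 1 was lower (Dnajc13, -0.54, adjusted p = 0.0393). Of all genes in that pair 13.3% were higher and 14.3% lower, so 8 genes are too few to set this list apart. Dnaja1, a general cytosolic J protein, differed by 0.32 (adjusted p = 0.224) there and by 0.48 (adjusted p = 0.147) against Ly6Chi MHCIIlo. Against Ly6Chi MHCIIhi it differed by 0.44 (adjusted p = 0.162), and by 0.65 (adjusted p = 0.0191) without Ly6Chi MHCIIhi ctrl 1.

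Among the Hsp90 chaperones and their partners, Ly6Clo MHCIIlo against Ly6Chi MHCIIlo gave 5 of 10 tested genes higher and 0 lower. Of all genes in that pair 18.8% were higher and 20.3% lower. The 5 included Hsp90ab1, the constitutive cytosolic Hsp90 (0.73, SE 0.19, adjusted p = 0.00383), Fkbp4, a steroid receptor cochaperone (0.86, adjusted p = 0.00558), and Chordc1, an Hsp90 cochaperone (0.88, adjusted p = 0.00959). Chordc1 was lower in Ly6Clo MHCIIhi than in Ly6Clo MHCIIlo (-0.84, adjusted p = 0.00190), opposite to Dnajb1. Ahsa1, which stimulates the Hsp90 ATPase, was higher in Ly6Clo MHCIIhi than in Ly6Chi MHCIIlo (0.85, adjusted p = 0.00318). In that pair 4 of 13 tested genes of this list were higher and 0 lower, where 21.6% of all genes were higher and 22.2% lower.

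Of the mitochondrial chaperones and chaperonins, 7 of 14 tested genes were higher and 0 lower in Ly6Clo MHCIIhi than in Ly6Chi MHCIIlo, where 21.6% of all genes were higher, and 7 of 13 were higher and 0 lower in Ly6Clo MHCIIlo than in Ly6Chi MHCIIlo, where 18.8% were higher. Hspe1, the mitochondrial Hsp10, was higher in Ly6Clo MHCIIhi by 0.98 (SE 0.18, adjusted p = 6.20e-05) over Ly6Chi MHCIIlo and by 0.57 (SE 0.17, adjusted p = 0.0146) over Ly6Clo MHCIIlo. Hspe1 was the only 1 of 13 tested genes of this list that was higher over Ly6Clo MHCIIlo. The 2 lower ones were Cct2 (-0.43, adjusted p = 0.00582) and Cct5 (-0.32, adjusted p = 0.0326). Of all genes in that pair 13.3% were higher and 14.3% lower. Hspa9, the mitochondrial Hsp70, was higher than in Ly6Chi MHCIIlo by 0.85 (adjusted p = 3.25e-06) in Ly6Clo MHCIIhi and by 1.15 (adjusted p = 1.84e-05) in Ly6Clo MHCIIlo. Chaperones of the endoplasmic reticulum had 4 of 18 higher and 1 lower in Ly6Clo MHCIIhi against Ly6Clo MHCIIlo, a share called in either direction near the 27.6% over all genes. Herpud1, which acts in degradation of misfolded proteins of that compartment, was higher (1.19, SE 0.16, adjusted p = 2.03e-06). Pdia4, a disulfide isomerase, was the one that was lower (-0.65, adjusted p = 0.000303).

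Immediate early genes, transcribed within minutes of many stimuli, had 5 of 17 higher and 0 lower in Ly6Clo MHCIIhi against Ly6Clo MHCIIlo. Against Ly6Chi MHCIIhi they had 5 of 17 higher and 1 lower. In either direction 27.6% and 17.4% of all genes were called in these pairs. In the first pair 13.3% of all genes were higher and 14.3% lower, and in the second 9.31% and 8.10%. In Ly6Clo MHCIIlo against Ly6Chi MHCIIlo 1 of 16 was higher and 7 lower, where 18.8% of all genes were higher and 20.3% lower. Fos was higher by 0.74 (SE 0.10, adjusted p = 2.00e-06) and 0.72 (SE 0.15, adjusted p = 0.000816), and Fosb by 0.70 (SE 0.11, adjusted p = 2.71e-05) and 0.73 (SE 0.15, adjusted p = 0.00105). Both encode AP-1 subunits. Without Ly6Chi MHCIIhi ctrl 1, the values against Ly6Chi MHCIIhi were 0.62 for Fos and 0.70 for Fosb (adjusted p = 0.00119 and 0.00161), and 6 of 17 genes of the list were higher and 2 lower. With all replicates, 9.31% of all genes were higher and 8.10% lower in that pair. Against Ly6Chi MHCIIlo 4 of 17 were higher, among them Myc (1.98, adjusted p = 1.14e-05), and 5 lower, among them Dusp1 (-0.80, adjusted p = 4.17e-08). These counts were near the shares over all genes, of which 21.6% were higher and 22.2% lower. Of the small heat shock proteins, 8 were counted and at most 1 passed the count filter in a population pair, and of the heat shock factors and their regulators 1 of 5 did, so neither list could be followed here.

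The spread of the members between replicates of the same group was wide, and it was shared. Within Ly6Clo MHCIIhi, Dnajb1 ran from 396 to 1680 CPM in ko and from 503 to 1640 CPM in ctrl. Replicates ctrl 3 and 6 and ko 2, 4 and 8 were among the high ones for Dnajb1 and Hsph1 alike. Over all 39 replicates, taken as deviations of log2(CPM + 1) from the group mean, Dnajb1 and Hsph1 had a Pearson r of 0.89 (Spearman rho 0.86), and r was 0.85 without the 2 replicates of Dnajb1 farthest from the median. The 6 pairs of members spanned r of 0.65 to 0.89. Within the 16 replicates of Ly6Clo MHCIIhi alone they spanned 0.76 to 0.95. The points of a pair share their library, its depth and its scaling factor, so these values describe the replicates, and no p is given.

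Across the 16 replicates of Ly6Clo MHCIIhi, Pearson r between log2 CPM and log2 total counts was 0.18 for Dnajb1, 0.07 for Hsph1, 0.20 for Hspa8 and -0.05 for Hsp90aa1. These values describe 1 population and carry no test.

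The second libraries of 8 replicates showed how much of that spread a repeat library brought back. For Dnajb1 the repeat libraries of ctrl 6 held 1629 and 1504 CPM and those of ko 4 held 1683 and 1624 CPM, while those of ctrl 7 held 444 and 522 CPM and those of ko 5 held 463 and 446 CPM. High replicates were thus high in both of their libraries, and low ones low in both. The SD of log2 CPM was 0.17 between libraries of a replicate and 0.77 between replicates for Dnajb1, 0.20 and 0.77 for Hsph1, and 0.09 and 0.27 for Hspa8. For Hsp90aa1 the libraries differed more, with SDs of 0.38 and 0.62, and the widest pair was ko 5 with 441 and 217 CPM. Whether a second library was made from the same cells, RNA or cDNA as the first was not stated in the labels.

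**Figure D3:**
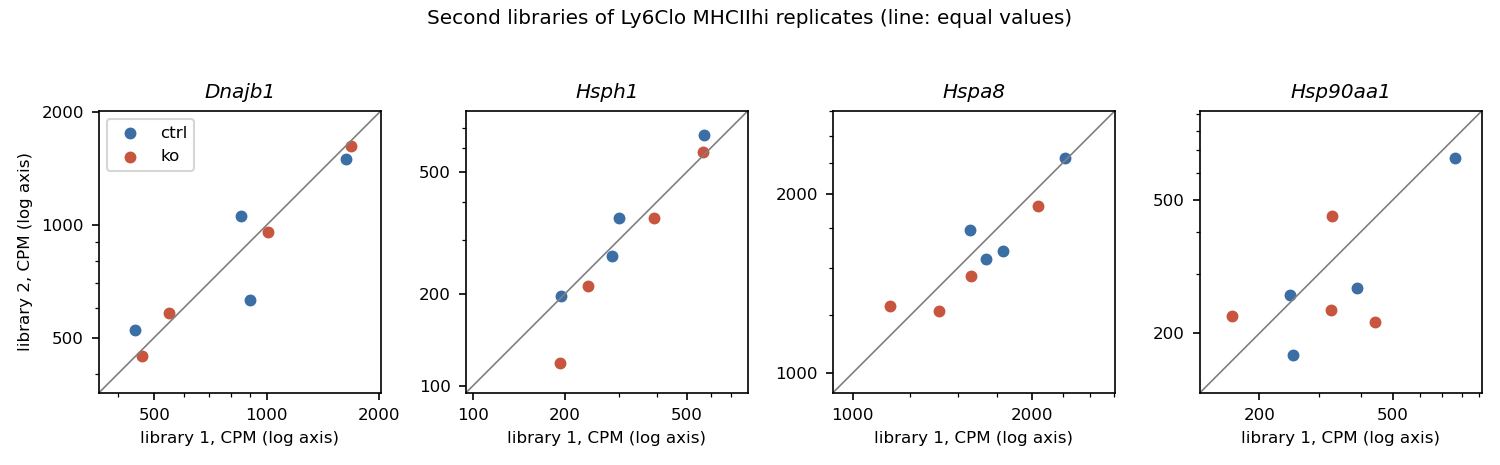
CPM in library 1 (horizontal) and library 2 (vertical), both on log axes, of the 8 Ly6Clo MHCIIhi replicates with 2 libraries, with the line of equal values. Dnajb1, Hsph1 and Hspa8 lie near the line over their range, and Hsp90aa1 scatters more, with a largest fold between libraries of 2.04 against 1.43 for Dnajb1.

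Among 5350 genes with a mean of at least 20 CPM, those whose deviations were most like the mean of the 4 members over 39 replicates were Hsp90ab1 (r = 0.87), Dnaja1 (r = 0.83) and Ppp1r15a (r = 0.75). Hsp90ab1 and Dnaja1 belong to the chaperone lists, and Ppp1r15a encodes GADD34, a regulatory subunit of the phosphatase that acts on eIF2α. The next were Jun, Klf2, Egr1, Hes1 and Ier5 (r = 0.69, 0.68, 0.68, 0.67 and 0.66), of which Jun, Klf2, Egr1 and Ier5 are on the immediate early list. Hspe1 (r = 0.65) and Bag3 (r = 0.65) completed the 10. Hspa8 taken alone had Egr1 (r = 0.75) and Ier5 (r = 0.71) among its 3 most like genes, whereas Dnajb1, Hsph1 and Hsp90aa1 were each most like Hsp90ab1 (r = 0.80, 0.89 and 0.82). Without the 2 replicates farthest from the median of the member mean, r for the 10 genes was 0.53 (Egr1) to 0.86 (Hsp90ab1). These genes were picked for likeness, and their r values are descriptions.

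Of these 10, the Hspe1 window also held runs of 3 half-sites, 2 that overlap. It is shown as the other such window beside Hsph1 (chr1:55088051-55088080, plus strand, GRCm38.p6, no annotated exon of Hspe1), with the first run, at -89 from the start, in capitals.
Hspe1 run of 3 half-sites: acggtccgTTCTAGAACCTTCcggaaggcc
Windows were found for 7 of the 10, and Dnaja1, Jun and Bag3 held a paired half-site without a run of 3.

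**Figure D4:**
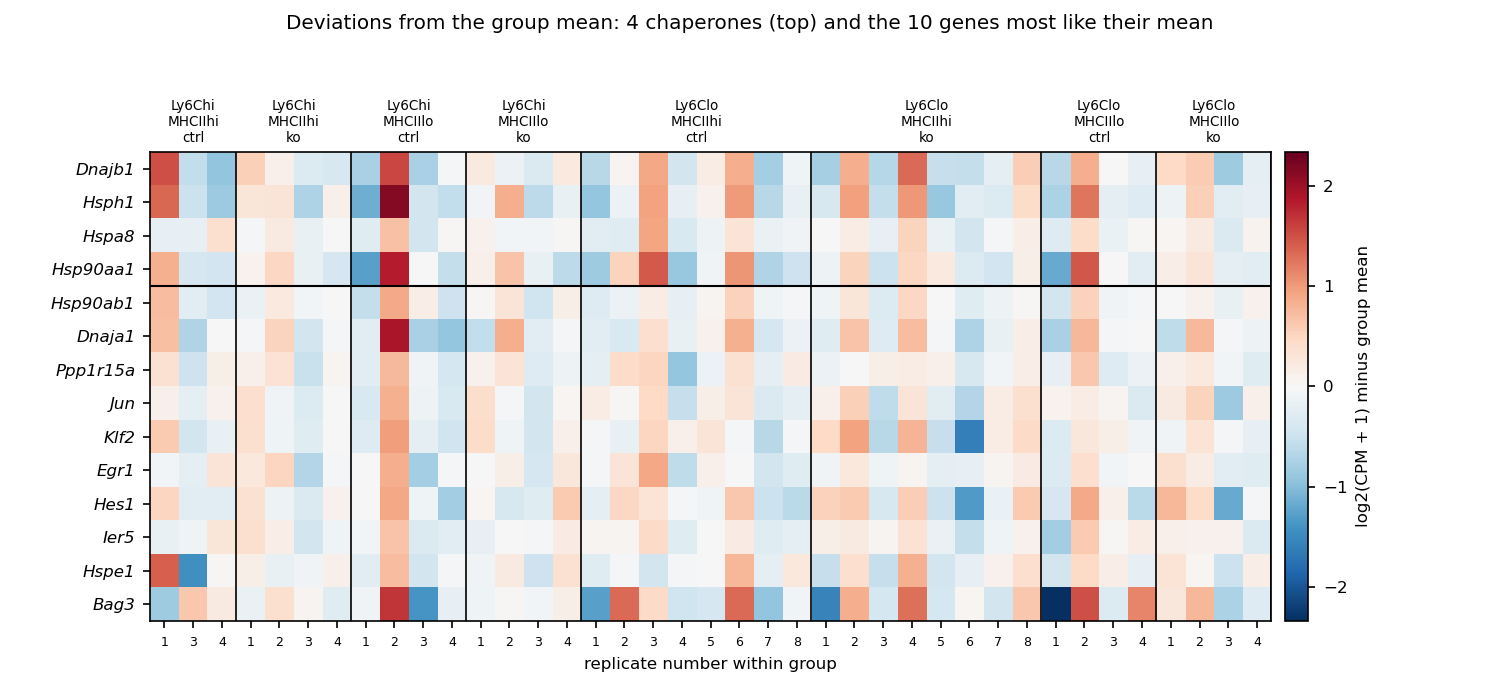
Deviation of log2(CPM + 1) from the group mean (colour, red higher) for the 4 chaperone genes (top) and the 10 genes most like their mean, in each of the 39 replicates by group. Ly6Chi MHCIIlo ctrl 2, Ly6Clo MHCIIlo ctrl 2, Ly6Clo MHCIIhi ctrl 3 and 6 and ko 4 are high across most rows.

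Labelled ko was then compared with labelled ctrl within each population, the contrast the series was built for. No member passed the threshold in any population. The tests were tried on simulated data with genes changed by 1 on the log2 scale. They called 9% of these in Ly6Chi MHCIIhi, 45% in Ly6Chi MHCIIlo, 81% in Ly6Clo MHCIIhi and 51% in Ly6Clo MHCIIlo. Each simulation changed 200 genes at once, at the spread typical of genes of their abundance, and the members' own spread was not simulated. The simulations called 83 to 169 genes, where these comparisons called 0 to 3, and an adjusted p depends on that number. The shares may therefore be too high for the members. A difference of that size could thus be missed. In Ly6Chi MHCIIhi, Dnajb1 held 1034, 243 and 191 CPM in ctrl replicates 1, 3 and 4 and 480, 354, 262 and 253 CPM in ko replicates 1 to 4. Hsph1 held 398, 110 and 87.0 CPM in ctrl and 170, 173, 84.9 and 152 CPM in ko. Hsp90aa1 held 411, 177 and 170 CPM in ctrl and 185, 244, 154 and 132 CPM in ko. In all 3 genes ctrl 1 was the highest replicate, from 78, 30 and 31 counts, and the remaining ctrl values overlapped ko or, for Dnajb1, lay below every ko value. Hspa8 held 1220, 1214 and 1810 CPM in ctrl and 1342, 1609, 1227 and 1379 CPM in ko, with ctrl 4 the highest.

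The ko against ctrl differences in Ly6Chi MHCIIhi were -0.996 (SE 0.58, adjusted p = 0.709) for Dnajb1, -0.73 (SE 0.56, adjusted p = 0.782) for Hsph1, -0.35 (SE 0.25, adjusted p = 0.777) for Hspa8 and -0.82 (SE 0.43, adjusted p = 0.709) for Hsp90aa1. None of 3509 genes was called by edgeR (0.0%), 245 had an unadjusted p under 0.05, and DESeq2 called 4, with no member in either set. Without ctrl 1, the replicate that also held the highest red cell and neutrophil marker sums, Dnajb1 was at 0.61 and Hsph1 at 0.61 (adjusted p = 0.934 each), so both turned direction. Hsp90aa1 was at -0.02 and Hspa8 at -0.29.

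In Ly6Chi MHCIIlo a single ctrl replicate again stood above the rest. Dnajb1 held 143, 715, 143 and 236 CPM in ctrl replicates 1 to 4 and 306, 238, 207 and 306 CPM in ko. Hsph1 held 47.5, 469, 78.4 and 70.7 CPM in ctrl and 107, 204, 73.6 and 99.9 CPM in ko. Hsp90aa1 held 115, 997, 276 and 189 CPM in ctrl and 205, 299, 168 and 124 CPM in ko. Ctrl 2 was the highest of the 8 replicates for each of these genes, and without it ctrl and ko still overlapped for all 3. Hspa8 held 1426, 2772, 1289 and 1760 CPM in ctrl and 1339, 1191, 1192 and 1267 CPM in ko, and 3 of 4 ko values lay below the lowest ctrl.

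The differences there were -0.26 (SE 0.42, adjusted p = 0.854) for Dnajb1, -0.47 (SE 0.60, adjusted p = 0.802) for Hsph1, -0.58 (SE 0.22, adjusted p = 0.356) for Hspa8 and -1.03 (SE 0.53, adjusted p = 0.484) for Hsp90aa1. Of 3966 genes, 0.0756% were called by edgeR and 14 genes by DESeq2, no member among them. Hspa8 was the only member with an unadjusted p under 0.05 (0.0195), which 11.2% of all genes had. Without ctrl 2, Dnajb1, Hsph1 and Hsp90aa1 were at 0.60, 0.86 and 0.02, so these 3 turned direction, and Hspa8 was at no less than -0.71 and no more than -0.27 in any leave-one-out fit.

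Ly6Clo MHCIIhi had 8 replicates per genotype. Dnajb1 had a lowest, median and highest of 503, 863 and 1640 CPM in ctrl and 396, 521 and 1680 CPM in ko. Hsph1 had 168, 284 and 628 CPM in ctrl and 154, 234 and 581 CPM in ko. Hsp90aa1 had 189, 294 and 953 CPM in ctrl and 194, 279 and 395 CPM in ko. For Dnajb1, 4 of 8 ko replicates lay below the lowest ctrl and 1 above the highest, and for Hsp90aa1 all 8 ko replicates lay below the ctrl mean of 422 CPM but none below its lowest value. Hspa8 had 1447, 1687 and 3486 CPM in ctrl and 1039, 1377 and 2009 CPM in ko, so 7 of 8 ko replicates lay below the ctrl mean and 5 of 8 below the lowest ctrl.

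The differences were -0.31 (SE 0.30, adjusted p = 0.979) for Dnajb1, -0.12 (SE 0.30, adjusted p = 1.00) for Hsph1, -0.46 (SE 0.17, adjusted p = 0.888) for Hspa8 and -0.54 (SE 0.30, adjusted p = 0.951) for Hsp90aa1. None of 5660 genes was called by edgeR (0.0%) or DESeq2, and 296 (5.23%) had an unadjusted p under 0.05, Hspa8 among them (0.0108). Leaving out 1 replicate moved Hspa8 between -0.53 and -0.26, the latter without ctrl 3, and Hsph1 turned direction without ctrl 3 (0.05), ctrl 6 (0.06) or ko 5 (0.00).

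Ly6Clo MHCIIlo had 4 replicates per genotype. Dnajb1 held 183, 512, 284 and 248 CPM in ctrl replicates 1 to 4 and 362, 396, 147 and 223 CPM in ko, and Hsph1 held 98.3, 395, 142 and 134 CPM in ctrl and 144, 231, 132 and 138 CPM in ko. Hspa8 held 1020, 1697, 1136 and 1291 CPM in ctrl and 1235, 1386, 942 and 1265 CPM in ko. Hsp90aa1 held 154, 962, 348 and 293 CPM in ctrl and 351, 391, 274 and 263 CPM in ko. Ctrl 2 was the highest of the 8 replicates for all 4 genes, and ko 2 the highest ko. The differences were -0.13 (SE 0.32) for Dnajb1, -0.23 (SE 0.37) for Hsph1, -0.11 (SE 0.18) for Hspa8 and -0.47 (SE 0.40) for Hsp90aa1, all with an adjusted p of 0.999. Of 3182 genes 0.0314% were called by edgeR, and 136 had an unadjusted p under 0.05, with 0 members among them, while DESeq2 called 2 genes. Without ctrl 2 all 4 turned direction, to 0.26, 0.39, 0.10 and 0.29, and Dnajb1 also without ko 3 (0.06).

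**Figure D5:**
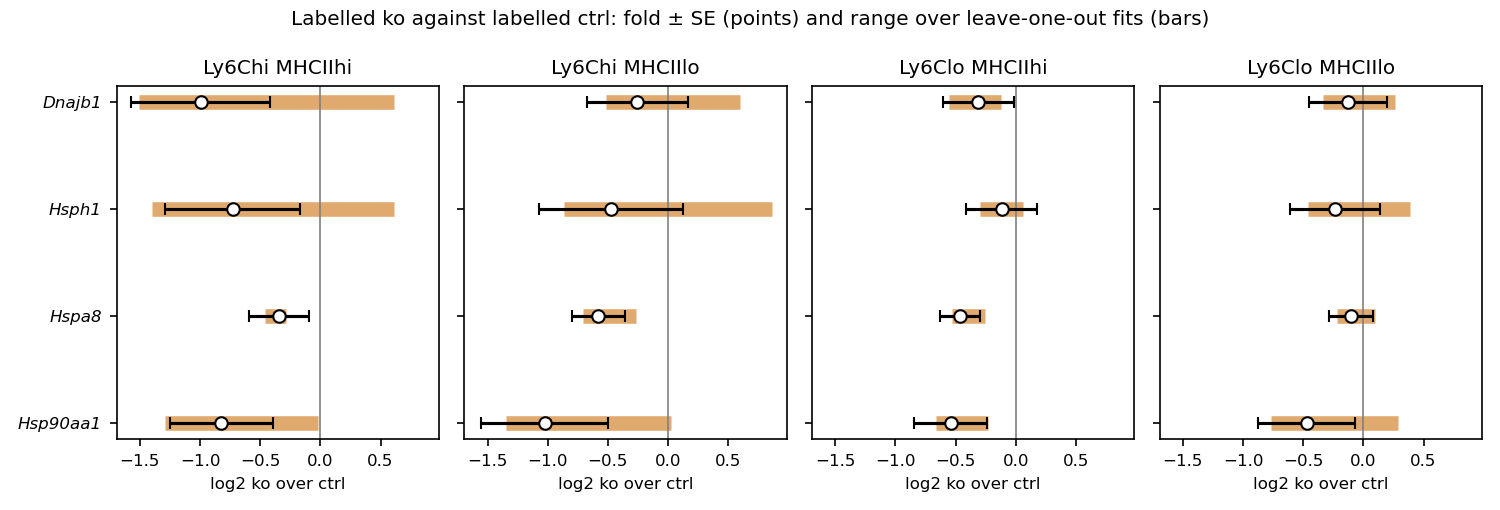
Log2 fold of labelled ko over labelled ctrl with SE (points) for each gene and population, and the range over the fits that left out 1 replicate (bars). All 16 points lie below 0, and the bars of Dnajb1 and Hsph1 cross 0 in 3 and 4 of the 4 populations.

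Thus the 4 members had negative values in each of the 4 populations, where 47.5% to 51.9% of all genes tested did, and the members' medians were -0.78, -0.53, -0.39 and -0.18 in the order of the populations above. Without 1 ctrl replicate, 3 of these medians changed sign: to 0.30 in Ly6Chi MHCIIhi without ctrl 1, to 0.31 in Ly6Chi MHCIIlo without ctrl 2 and to 0.28 in Ly6Clo MHCIIlo without ctrl 2. In Ly6Clo MHCIIhi the median was -0.18 without ctrl 3. The 4 members vary together, so their shared sign within a population is not a count of separate observations, and 10 of the 16 values turned direction when 1 replicate was left out. Whether the ko against ctrl difference itself differed between populations was tested with 3 interaction coefficients over all 8 groups. The adjusted p was 0.953 for Hspa8 and 0.980 to 0.994 for the other members, and 4 of 6032 genes (0.0663%) passed, with 402 at an unadjusted p under 0.05 and 11 called by DESeq2. In simulated data this test called 15% of genes changed by 1 on the log2 scale in 1 coefficient. The members' own spread was not simulated here either, and such a difference would often be missed. No gene of the other chaperone lists or the immediate early list passed in any of the 4 ko against ctrl comparisons. Negative medians were not particular to the members: those of the immediate early list were -0.10, -0.44, -0.34 and -0.18 in the same order of populations. Those of the endoplasmic reticulum chaperones were 0.10, 0.07, 0.06 and 0.02.

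The library barcode bore on how far genotype could be read. In Ly6Chi MHCIIhi, Ly6Chi MHCIIlo and Ly6Clo MHCIIlo every ctrl library had an AT-rich barcode (fewer than 3 of 6 bases G or C) and every ko library a GC-rich one, so in those populations a genotype difference and a barcode difference cannot be told apart. Among Ly6Clo MHCIIhi libraries, AT-rich barcodes marked 8 of 12 from ctrl and 4 of 12 from ko. Within the 5 replicates that held 1 library of each class, GC-rich against AT-rich libraries differed by 0.00 for Dnajb1 (SE 0.09), -0.07 for Hsph1 (SE 0.10), 0.00 for Hspa8 (SE 0.06) and 0.35 for Hsp90aa1 (SE 0.11). In 4 of these 5 replicates (ctrl 5 to 8) the GC-rich library was the first and the AT-rich one the second, and in ko 4 the reverse, so barcode class and library number can hardly be told apart here. No member passed, where 1.54% of 6111 genes did. Hsp90aa1 had an adjusted p of 0.166 (unadjusted 0.00383) and passed without ctrl 8 (0.43, adjusted p = 0.0279). Over the first libraries of all 16 replicates, with genotype in the model, the differences were -0.33, -0.32, -0.27 and -0.13 in the same order of genes, and none passed, where 1.76% of 4949 genes did. In both genotypes these libraries were AT-rich in replicates 1 to 4 and GC-rich in replicates 5 to 8. Barcode class over first libraries therefore cannot be told apart from any difference between those 2 sets of replicates. DESeq2 called 0 members in either barcode comparison.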

How the data were processed

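The authors deposited raw counts per gene (whether of reads or of molecular identifiers was not stated) as 1 table for all libraries, each column named by its barcode. Per the submitters' processing notes R 3.4.4, DESeq2 1.18.1 and GRCm38 were used; the aligner and the counter were not given in the sources used here. A row named z (127 counts, 0.000967% of the total) was removed. Libraries of 1 replicate were summed, and a library under 28006 counts (0.1 of the median total) was left out. Levels are CPM with TMM scaling over 39 replicates. Tests used edgeR 4.0.16 in R 4.3.3 (quasi-likelihood F test, filterByExpr with minimum count 10 and minimum total 15, Benjamini-Hochberg over all genes tested, threshold 0.05), with SE as the log2 fold divided by the root of F. The steps were tested on simulated data. Genotype was compared within a population, and populations with genotype as a covariate. DESeq2 1.42.0, other scaling, filters and fits, and leaving out each replicate were alternatives. The mean of the 4 counted members stood in for that of all 6 in likeness. Depth limits low genes: totals kept were 34362 counts or more.

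The members and the gene lists were chosen with earlier results of these data known. Genes of the lists were named, per comparison, as up to 3 per list and direction with the smallest adjusted p under 0.05; genes most like the members were the 10 highest Pearson r, and the 3 highest for each member, of which 1 is not reported here. The labels do not say whether replicate numbers link samples, and they were not used as a block in the main fits: in no comparison did every same-numbered pair correlate over 0.1 in its deviations from the group means. Every such pair was nonetheless positive in Ly6Chi MHCIIhi against Ly6Chi MHCIIlo (0.0777 to 0.255) and in Ly6Clo MHCIIlo against Ly6Chi MHCIIhi (0.0251 to 0.0997). Pairing of populations from 1 animal is thus not excluded. The fit of listed genes without Ly6Chi MHCIIhi ctrl 1 and a fit of single libraries were added after the data were seen.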

Additional observations from a re-analysis of the deposited data

Results flagged for a closer look

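In 28 sets of replicates (4 genes in 7 groups of 4 or 8), 5 held a highest replicate far from the others by Dixon's criterion. About 1 in 20 sets of normally distributed values meet that criterion by chance. It was applied here to CPM and not to log2 CPM, and the distribution of CPM was not tested. The 5 sets are therefore not read as more than chance gives. Ly6Chi MHCIIlo ctrl replicate 2 held 715 CPM of Dnajb1, where the other 3 replicates held 143 to 236 CPM, and 469 CPM of Hsph1, where the others held 47.5 to 78.4 CPM. Replicate 2 of Ly6Clo MHCIIlo stood apart for Hsph1 in both genotypes, with 395 CPM in ctrl (others 98.3 to 142 CPM) and 231 CPM in ko (others 132 to 144 CPM). Ly6Clo MHCIIhi ctrl replicate 3 held 3486 CPM of Hspa8, where the other 7 held 1447 to 2312 CPM. The 28 sets share libraries, so they are not independent.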

How the results depend on the processing

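DESeq2 size factors, the DESeq2 test, no count filter, keeping all libraries, 1 fit of all 8 groups, a replicate block and leaving out libraries under 100000 counts were tried; a sum of Hspa1a and Hspa1b was not run. Members called in Ly6Clo MHCIIhi against Ly6Chi MHCIIhi were 1, and 0 with DESeq2 size factors, the DESeq2 test or all 8 groups, 3 without the filter and 2 without libraries under 100000 counts, which leaves 1 ctrl replicate, assumed to vary like the other groups. Against Ly6Clo MHCIIlo they fell from 2 to 1 with all 8 groups. In Ly6Clo MHCIIlo against Ly6Chi MHCIIhi they rose from 0 to 1 without the filter, with all libraries or without those under 100000 counts, and in ko against ctrl of Ly6Chi MHCIIlo from 0 to 1 without the filter. With 1 replicate left out, members called were 1 to 2 for Ly6Clo MHCIIhi against Ly6Clo MHCIIlo, 0 to 2 against Ly6Chi MHCIIhi, 2 to 3 against Ly6Chi MHCIIlo, 0 to 2 and 0 to 1 for Ly6Clo MHCIIlo against Ly6Chi MHCIIlo and Ly6Chi MHCIIhi, and 0 to 1 for barcode class within replicates. The causes were not tested.

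Directions turned as follows. Without libraries under 100000 counts, ko against ctrl in Ly6Chi MHCIIhi gave Dnajb1 0.84, Hsph1 0.79 and Hsp90aa1 0.11, and Dnajb1 in Ly6Clo MHCIIlo against Ly6Chi MHCIIhi was 0.0924. With single libraries and barcode class, ko against ctrl in Ly6Clo MHCIIlo gave Dnajb1 0.0199, Hsph1 0.0290 and Hspa8 0.0453. Hspa8 in Ly6Chi MHCIIhi against Ly6Chi MHCIIlo was -0.0835 without the filter and -0.0131 with all 8 groups. For barcode class within replicates, Hspa8 was -0.000689 with DESeq2 size factors, -0.00127 with the DESeq2 test and -0.0168 without the filter, and Dnajb1 -0.0126 without the filter. With 1 replicate left out, ko against ctrl spanned, for Dnajb1, -1.51 to 0.61, -0.51 to 0.60 and -0.33 to 0.26 in Ly6Chi MHCIIhi, Ly6Chi MHCIIlo and Ly6Clo MHCIIlo; for Hsph1, -1.40 to 0.61, -0.86 to 0.86, -0.29 to 0.0638 and -0.46 to 0.39 in the 4 populations; for Hsp90aa1, -1.35 to 0.0228 and -0.77 to 0.29 in Ly6Chi MHCIIlo and Ly6Clo MHCIIlo; for Hspa8, -0.22 to 0.0984 in Ly6Clo MHCIIlo. Between populations Hsp90aa1 spanned -0.44 to 0.19 (Ly6Chi MHCIIhi against Ly6Chi MHCIIlo) and -0.40 to 0.0860 (Ly6Clo MHCIIhi against Ly6Clo MHCIIlo), Hspa8 -0.19 to 0.0291 (Ly6Clo MHCIIlo against Ly6Chi MHCIIlo), and Dnajb1 -0.68 to 0.0958 and Hsph1 -0.16 to 0.49 (Ly6Clo MHCIIlo against Ly6Chi MHCIIhi). Barcode class spanned -0.32 to 0.25 for Hsp90aa1 over first libraries, and -0.0776 to 0.0835 for Dnajb1 and -0.0256 to 0.0352 for Hspa8 within replicates.

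The labels do not say whether replicate numbers link samples across groups. Correlations of same-numbered deviations were at most 0.281, and in Ly6Chi MHCIIhi against Ly6Chi MHCIIlo 4 of 7 pairs were over 0.1. In population pairs the replicate block gave ctrl and ko samples of the same number 1 shared term. Populations sorted from 1 animal were therefore not modelled as pairs. The replicate block moved members called from 1 to 0 in Ly6Clo MHCIIhi against Ly6Chi MHCIIhi and from 0 to 2 in Ly6Clo MHCIIlo against Ly6Chi MHCIIlo. Under the block, Dnajb1 was 0.0790 in ko against ctrl of Ly6Chi MHCIIlo, Hsp90aa1 0.0641 in Ly6Chi MHCIIhi against Ly6Chi MHCIIlo and Hsph1 -0.0122 in Ly6Clo MHCIIlo against Ly6Chi MHCIIhi.

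Over all genes, calls in ko against ctrl of Ly6Chi MHCIIhi were 0, and 4 with DESeq2, 0.694% of genes without the filter, 36 with all 8 groups, 10 with the block, 65 and 21 with single libraries without and with barcode class, and 4 without libraries under 100000 counts. In Ly6Chi MHCIIlo they were 3, and 14 with DESeq2, 61 without the filter, 5 with the block and 0 with single libraries. In Ly6Clo MHCIIhi they were 0, and 57 without the filter and 2 with all 8 groups, the block or single libraries. In Ly6Clo MHCIIlo they were 1, and 2 with DESeq2, 24 without the filter, 0 with all 8 groups and 9 with the block. Ly6Chi MHCIIhi against Ly6Chi MHCIIlo had 133, and 303 without the filter and 304 with all 8 groups. The interaction had 4, and 11 with DESeq2, 112 without the filter, 1 with all libraries, 12 with single libraries and 0 without libraries under 100000 counts. Barcode class had 87 over first libraries, and 152 without the filter, and 94 within replicates, and 34 with DESeq2.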

Other observations

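Among the 7 groups that hold a replicate numbered 2, that replicate had the highest mean deviation over the 4 chaperone genes in 5. This was noticed after the values were seen and was not tested, and the labels do not say that a number links samples across groups.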
